A study of Rattus norvegicus with 4 samples.

Results

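The growth factor receptors described here are 8 receptor genes, Pdgfra and Pdgfrb for platelet-derived growth factor (PDGF), Egfr, Erbb2 and Erbb3 of the ErbB family, Met, Fgfr1 and Igf1r, together with the PDGF ligand genes Pdgfa and Pdgfc. They were chosen by gene name, and all 10 were among the 25810 genes of the count files. RNA of untreated PC12 cells, a rat pheochromocytoma line, was sequenced from the clone wtPC12 (wild type, low REST) and from the clone hrPC12 (high REST, arisen spontaneously in the same line), with 2 libraries per clone. REST is a repressor of neuronal genes. With 1 clone per REST level, effects of REST cannot be told apart from whatever else separates the clones, and the labels do not say whether the libraries of a clone came from separate cultures, so p values measure only the spread between these libraries, which may be technical.

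Receptor tyrosine kinases are membrane proteins that pair when a ligand binds, phosphorylate each other on tyrosines and recruit adaptors that switch on the Ras-ERK, PI3K-Akt and phospholipase C pathways. PC12 cells are a classical model of this signaling, since nerve growth factor drives them to extend neurites and EGF drives them to divide. PDGF receptors are best known from fibroblasts, pericytes and other mesenchymal cells, and Met, the receptor of hepatocyte growth factor (HGF), from epithelial cells and muscle precursors.

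The reads counted on genes ranged from 20975027 to 27246502 per library. Values below are normalized counts, that is reads scaled by edgeR's TMM factors to a common depth, and log2 FC is the fitted change in hrPC12 over wtPC12. Adjusted p values are Benjamini-Hochberg values of edgeR's quasi-likelihood test over 13726 genes. DE genes are those past an adjusted p of 0.01 and past a log2 FC of 2 in either direction. Levels of different genes were not compared with each other, since no transcript lengths were used. With 2 libraries per clone, a two-sided exact permutation test on one gene cannot go below p = 0.333.

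Of the 10 genes, 9 passed the filter on low counts and 1, Met, did not, because no read of it was found in wtPC12. Among the 9 tested genes, Pdgfrb and Pdgfc were upregulated past both thresholds and 0 were downregulated, with edgeR as with DESeq2. A lower value at an unadjusted p under 0.05 was seen in 0 of them with edgeR. Among all tested genes 4.84% passed both thresholds upward and 5.46% downward, so 10.3% in all. The libraries of the clones did not overlap for 6 of the 9 tested genes, against 73.5% of all tested genes, and for Met. In these 6 the higher clone was hrPC12, so 6 of the 9 held a pattern seen in 37.9% of all tested genes. Of the 10094 tested genes without overlap, 5201 were higher in hrPC12. Met, without a read in wtPC12, could only be higher in hrPC12. In edgeR, 4 of the 9 reached an unadjusted p under 0.05, against 46.3% of all tested genes. For the 9 genes the log2 FC had a median of 0.74, compared with 0.06 over all tested genes. The tested genes thus held a receptor and a ligand of the PDGF system that differed strongly, with Erbb2 and Pdgfa higher by less, and 5 receptors without a detectable difference.

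**Figure D1:**
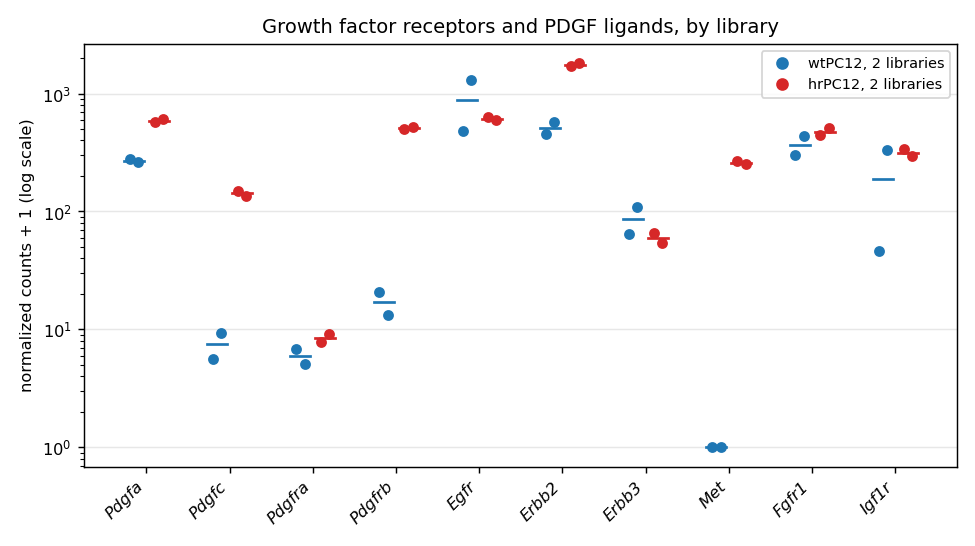
Normalized counts plus 1 (vertical axis, log scale) of the 10 genes in the 2 wtPC12 libraries (blue) and the 2 hrPC12 libraries (red). Each point is a library and each bar the mean of a clone. Pdgfc, Pdgfrb and Met stand far apart between the clones, while Egfr, Erbb3 and Igf1r overlap.

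Promoter sequences are shown for the genes with the strongest rise that the reference holds, Pdgfc and Met, and for Erbb2 and Pdgfa, which were higher by less. They are the 250 bases before the gene's start in the RefSeq annotation of GRCr8, a later build than the one the reads were aligned to, written 5′ to 3′ on the gene's strand. Capitals mark a GC box, GGGCGG on either strand, a motif bound by Sp family factors.
Pdgfc, chr2:168614918-168615167, plus strand: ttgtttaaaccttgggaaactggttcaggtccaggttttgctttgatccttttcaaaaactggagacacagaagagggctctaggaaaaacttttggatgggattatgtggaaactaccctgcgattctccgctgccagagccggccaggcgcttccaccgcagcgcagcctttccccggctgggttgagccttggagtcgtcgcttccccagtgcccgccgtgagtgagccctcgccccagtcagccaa
Met, chr4:46784496-46784745, plus strand: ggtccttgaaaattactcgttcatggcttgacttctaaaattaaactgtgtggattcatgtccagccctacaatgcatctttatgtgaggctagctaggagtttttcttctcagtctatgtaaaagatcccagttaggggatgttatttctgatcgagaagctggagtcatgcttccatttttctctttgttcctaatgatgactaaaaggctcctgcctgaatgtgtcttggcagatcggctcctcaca
Erbb2, chr10:83907351-83907600, plus strand: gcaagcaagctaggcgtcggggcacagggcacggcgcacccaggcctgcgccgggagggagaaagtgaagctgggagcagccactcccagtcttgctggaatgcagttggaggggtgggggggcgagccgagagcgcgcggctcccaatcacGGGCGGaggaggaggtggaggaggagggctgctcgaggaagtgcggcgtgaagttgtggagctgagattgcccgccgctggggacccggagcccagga
Pdgfa, chr12:20759116-20759365, plus strand: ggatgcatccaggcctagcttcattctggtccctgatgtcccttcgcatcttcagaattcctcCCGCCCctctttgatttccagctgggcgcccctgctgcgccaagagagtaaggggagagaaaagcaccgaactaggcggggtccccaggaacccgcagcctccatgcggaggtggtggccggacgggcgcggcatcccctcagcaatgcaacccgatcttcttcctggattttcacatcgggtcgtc

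An entry was found for 7 of the 10 genes, and Pdgfrb, Erbb3 and Fgfr1 had none. Of the 33469 windows of this length in the table, 30.5% hold GGGCGG. It was found once each in the windows of Pdgfa, Egfr, Erbb2 and Igf1r and not in those of Pdgfra, Pdgfc and Met. The G and C content was 56% for Pdgfc, 42% for Met, 69.2% for Erbb2 and 60.8% for Pdgfa. In the windows of genes without a detectable difference it was 47.2% (Pdgfra), 63.6% (Egfr) and 79.6% (Igf1r). The median over all windows was 51.2%. The site that REST binds, RE1, was searched by a left part, CAGCACC, and a right part, GGACAG, on both strands. The left part occurs in 5.43% of all windows and in none of the 7, and the right part in 18.2% of all windows and, of the 7, in that of Egfr. The TATA box TATAAA, found in 12.9% of all windows, was in none of the 7. Such matches only describe the letters of these windows.

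Of the PDGF ligands, which are secreted as dimers, Pdgfa codes for the A chain and had 277 and 262 normalized counts in wtPC12 (replicates 1 and 2, an order kept throughout) against 569 and 608 for hrPC12. The clones did not overlap, and the 2 libraries of each were close. The log2 FC of Pdgfa was 1.13 (standard error 0.24, edgeR adjusted p = 0.0224), which is 2.19-fold and past neither threshold. Pdgfc codes for the C chain, which must be cleaved by a protease to become active. It had 4.65 and 8.24 normalized counts in wtPC12, from 4 and 8 reads, and 148 and 135 in hrPC12. The rise of Pdgfc was 21.3-fold, with a log2 FC of 4.41 (standard error 0.45, edgeR adjusted p = 0.00273). Its adjusted p was 0.0120 under glmTreat, an edgeR test against the log2 FC threshold itself. Without wtPC12 replicate 2, a fit in which no gene passed, its log2 FC was 4.89.

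The other PDGF ligand genes gave little signal. Pdgfb, the B chain, had 11 and 21 reads in wtPC12 and 1 and 2 in hrPC12, and was thus at the floor of 3 reads in hrPC12 and at least 6.18-fold lower there. Its edgeR adjusted p of 0.0217 did not pass. Pdgfd, the D chain, had at most 2 reads in any library and was not tested. So the PDGF ligand with the higher value in wtPC12 was Pdgfb and those with the higher value in hrPC12 were Pdgfa and Pdgfc, of which Pdgfc passed.

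Pdgfrb, the receptor bound mainly by B and D chain dimers, had 19.8 and 12.4 normalized counts in wtPC12, from 17 and 12 reads, and 496 and 515 in hrPC12. Its hrPC12 libraries differed by 1.04-fold. With a log2 FC of 4.97 (standard error 0.37, edgeR adjusted p = 0.00115), Pdgfrb was 31.4-fold higher in hrPC12. It also passed with glmTreat (adjusted p = 0.00321). Without wtPC12 replicate 2, a fit in which no gene passed, its log2 FC was 4.67. Pdgfra, the receptor for A, B and C chains, was near the limit of detection in both clones. It had 5 and 4 reads in wtPC12 and 8 reads in each hrPC12 library, or 5.82, 4.12, 6.77 and 8.09 normalized counts. The clones did not overlap, but a log2 FC of 0.57 with a standard error of 0.58 (edgeR adjusted p = 0.475) was not detectable as a difference at this depth. Pdgfrl, which codes for a secreted protein related to the receptors and lacks a kinase, had 9 and 8 reads in wtPC12 and 3 and 1 in hrPC12 (edgeR adjusted p = 0.0630).

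The genes whose levels over the 4 libraries, as differences from their own mean in log2, lay closest to those of Pdgfrb were Tnni1, Adipoq and Usp18, at distances from 0.13 to 0.18. For Pdgfc they were Notch1, Hs3st3a1 and Epha2, at distances from 0.09 to 0.19. Genes of the lists used here were left out of this search, and with 4 libraries in 2 clones such likeness mostly reflects the size of the difference between clones.

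In the ErbB family, Egfr is the receptor of EGF and TGF-alpha, Erbb3 binds neuregulins but has hardly any kinase activity, and Erbb2 has no ligand of its own and serves as the partner of the others. Erbb2 had 449 and 577 normalized counts in wtPC12 and 1707 and 1808 in hrPC12, without overlap. Its log2 FC of 1.78 (standard error 0.22), or 3.42-fold, passed the adjusted p threshold (edgeR adjusted p = 0.00528) and lay within the log2 FC threshold. With each library left out in turn it ranged from 1.58 to 1.97. Of these fits it passed the adjusted p threshold only without hrPC12 replicate 1, and without wtPC12 replicate 2 no gene passed.

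Egfr had 479 and 1290 normalized counts in wtPC12 and 626 and 590 in hrPC12, so that both hrPC12 libraries lay between the wtPC12 ones. The log2 FC of Egfr, −0.54 with a standard error of 0.48 (edgeR adjusted p = 0.417), was within the spread of the wtPC12 libraries. Dropping wtPC12 replicate 1 gave −1.12 and dropping replicate 2 gave 0.34, so its direction rested on which of these libraries was used. Erbb3 was also without a detectable difference, with 62.8 and 107 normalized counts in wtPC12 and 64.3 and 52.6 in hrPC12 (log2 FC −0.54, standard error 0.41, edgeR adjusted p = 0.346), and one hrPC12 library lay between the wtPC12 ones.

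Among the ligands of these receptors there were DE genes in both directions. Of 10 ErbB ligand genes found in the files, 5 were tested, and 2 rose and 1 fell past both thresholds. The shares of all tested genes were 4.84% and 5.46%. Nrg1, a neuregulin that binds Erbb3, had 5 and 2 reads in wtPC12 and 2767 and 2012 reads on the hrPC12 side, with log2 FC 9.11 (standard error 0.44, edgeR adjusted p = 0.000427). Nrg2, another neuregulin, moved in the opposite direction, from 796 and 1169 normalized counts to 59.3 and 68.8 (log2 FC −3.94, standard error 0.33, edgeR adjusted p = 0.00145). Tgfa, which codes for the Egfr ligand TGF-alpha, had 0 and 1 reads in wtPC12 and 82 and 73 in hrPC12, at least 21.8-fold higher and past both thresholds (edgeR adjusted p = 0.00356), though not with glmTreat (adjusted p = 0.0108). Tgfa passed the filter on low counts only through its hrPC12 reads, so these p values add no support beyond the counts.

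Ereg, the gene of epiregulin, another ligand of Egfr, had no read in wtPC12, so that it was not tested. With 174 and 153 reads in hrPC12 it was at least 45.9-fold higher there. Egf itself (log2 FC 0.40, edgeR adjusted p = 0.371) and Hbegf, of heparin-binding EGF (log2 FC 0.30, edgeR adjusted p = 0.479), were not past either threshold. Both wtPC12 libraries were thus above both hrPC12 libraries for Nrg2, and below them for Nrg1, Tgfa and Ereg. They were also below them for Egf, with 74.4 and 91.7 against 102 and 117 normalized counts. Of all tested genes 73.5% had no overlap between the clones.

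**Figure D2:**
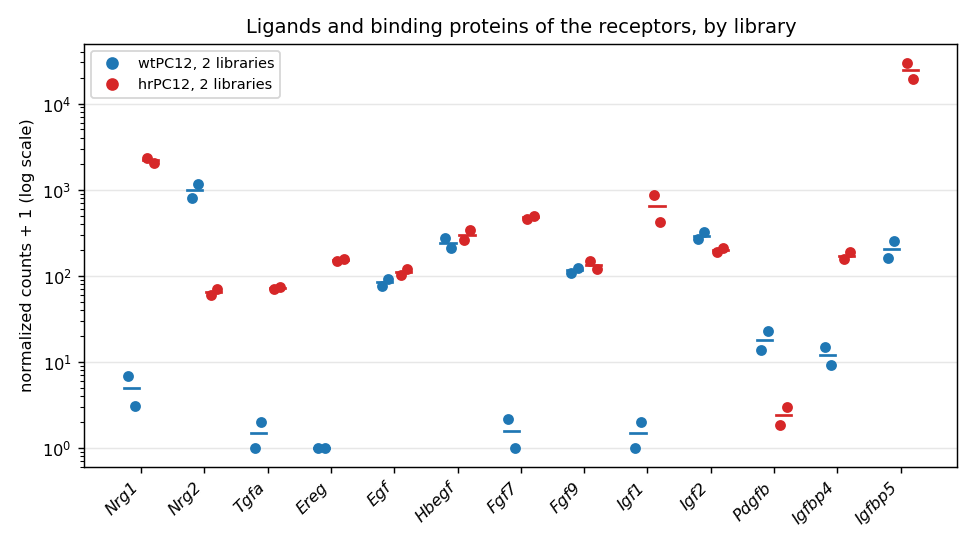
Normalized counts plus 1 (vertical axis, log scale) of ligand and binding protein genes of the receptors, with the 2 wtPC12 libraries in blue, the 2 hrPC12 libraries in red, and a bar at the mean of each clone. Nrg1, Tgfa, Ereg, Fgf7 and Igf1 lie at the bottom of the scale in wtPC12 and far higher in hrPC12, while Nrg2 lies the other way round.

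Met was the gene of the 10 with reads in one clone only. It had 0 reads in both wtPC12 libraries and 313 and 247 in hrPC12, or 265 and 250 normalized counts. A count of 0 allows up to 3 reads, or 3.49 and 3.09 normalized counts in wtPC12 replicates 1 and 2, so Met was at least 78.3-fold higher in hrPC12. Such limits cover counting error only, since reads were not tagged by molecule. Met enters an edgeR fit through its hrPC12 reads alone, so a p value there adds no support beyond the counts. Its adjusted p was 5.22e-05 in the edgeR fit over every gene with at least 1 read. With edgeR's own filter, filterByExpr, it was 0.00186.

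Of the genes around Met, Hgf, its ligand, had 1 read or none in every library of both clones. The 5 tested genes of the HGF system other than Met included 1 downregulated gene, against 5.46% of all tested genes. Spint1, a membrane-bound inhibitor of the proteases that activate HGF, went from 6668 and 5311 normalized counts to 1099 and 1179 (log2 FC −2.39, standard error 0.20, edgeR adjusted p = 0.00145). It did not pass with glmTreat (adjusted p = 0.134). Spint2, a related inhibitor, had a log2 FC of −1.20 (edgeR adjusted p = 0.0139), and Mst1r, the receptor related to Met, one of 1.72 (edgeR adjusted p = 0.0241). Neither passed.

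Fgfr1, a widely expressed receptor of fibroblast growth factors (FGFs), had 299 and 434 normalized counts in wtPC12 and 440 and 508 in hrPC12. The clones did not overlap, by a margin smaller than the spread within either. Its log2 FC was 0.37 (standard error 0.29, edgeR adjusted p = 0.360), and it was 0.10 without wtPC12 replicate 1. Of the other FGF receptor genes 3 were tested and 2 rose, against 4.84% of all tested genes. Fgfr3 had 670 and 928 normalized counts in wtPC12 and 6078 and 3467 in hrPC12 (log2 FC 2.58, standard error 0.35, edgeR adjusted p = 0.00646), and did not pass with glmTreat (adjusted p = 0.212) or without wtPC12 replicate 1 (adjusted p = 0.0207). Without hrPC12 replicate 1 its log2 FC was 2.12. It lies in a stretch of neighbouring genes whose hrPC12 replicate 1 counts were raised, with a median log2 ratio to replicate 2 of 0.80 over the 7 placed genes centred on it. Fgfrl1, whose product binds FGFs but lacks the kinase, had 26.8 and 29.9 against 331 and 397 (log2 FC 3.68, standard error 0.32, edgeR adjusted p = 0.00171), and did not pass with glmTreat (adjusted p = 0.0104).

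Among FGF ligand genes 5 were tested and Fgf7 alone passed both thresholds, against 10.3% of all tested genes. Fgf7, keratinocyte growth factor, had 1 and 0 reads in wtPC12 and 536 and 492 in hrPC12, at least 145-fold higher (edgeR adjusted p = 0.000915). Its receptor is a splice form of Fgfr2, and Fgfr2 had 0 reads in wtPC12 and 4 and 1 in hrPC12. Fgf9, the other abundant FGF ligand gene here, had a log2 FC of 0.21 (edgeR adjusted p = 0.617).

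Igf1r, the receptor of insulin-like growth factors (IGFs), had the largest spread within a clone of the 10 genes. It had 45.4 and 329 normalized counts in wtPC12, against 335 and 292 in hrPC12. The wtPC12 libraries differed by 7.24-fold, and a ratio as large was found for 0.674% of the 10825 tested genes with at least 100 reads on average. Its log2 FC of 0.74 with a standard error of 0.86 (edgeR adjusted p = 0.526) was therefore not distinguishable from 0. Without wtPC12 replicate 1 it was −0.10 (edgeR adjusted p = 0.788). Without wtPC12 replicate 2 it was 2.79 (edgeR adjusted p = 0.0224), and DESeq2 without that library gave 2.72 (adjusted p = 2.98e-05), past both thresholds.

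The same wtPC12 libraries differed by 2.69-fold for Egfr, a ratio reached by 4.27% of the genes, and by at most 1.71-fold for Erbb2, Erbb3 and Fgfr1. Replicate 2 was the higher one in each of these receptors. Among the genes of 100 or more reads, 9.19% differed over 2-fold between the wtPC12 libraries and 4.06% between the hrPC12 libraries. The 7 placed genes centred on Igf1r in the order of the GRCr8 assembly had a median log2 ratio of wtPC12 replicate 2 to replicate 1 of 0.76, and its part in the value of Igf1r was not tested. Between the hrPC12 libraries the same median lay between −0.11 and 0.19 for each of the 9 tested genes.

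**Figure D3:**
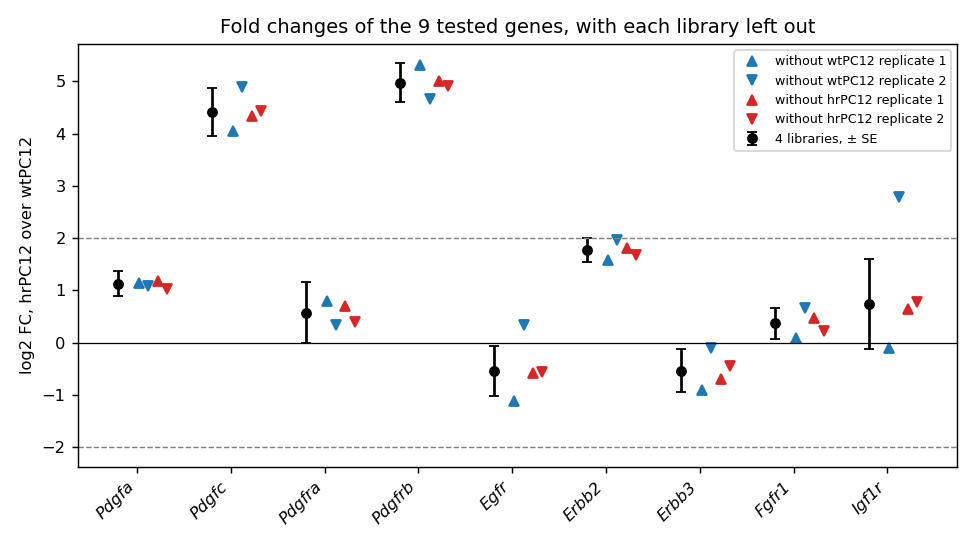
Log2 FC of the 9 tested genes (black points, error bars are standard errors) and the same with each library left out in turn (triangles). Dashed lines mark log2 FC of −2 and 2. Pdgfc and Pdgfrb stay above 4 throughout, Erbb2 stays under 2, and Egfr and Igf1r change side of 0 with the wtPC12 library used.

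Around Igf1r, DE genes were found among the ligands and the binding proteins. Igf1 had 0 and 1 reads in wtPC12 and 1015 and 418 in hrPC12, at least 195-fold higher (edgeR adjusted p = 0.00150), with hrPC12 replicate 1 2.03-fold above replicate 2. Igf2, the other IGF, had a log2 FC of −0.55 (edgeR adjusted p = 0.173). Of 4 tested genes of IGF binding proteins, which hold IGFs outside the cell, 2 rose, against 4.84% of all tested genes. Igfbp5 had 158 and 252 normalized counts in wtPC12 and 29370 and 19147 in hrPC12 (log2 FC 6.88, standard error 0.42, edgeR adjusted p = 0.000699), and Igfbp4 rose 15.3-fold (edgeR adjusted p = 0.00340, and 0.0201 with glmTreat). Igfbp6, the next in abundance, had a log2 FC of 1.17 (edgeR adjusted p = 0.0395) and Igfbp7 one of −0.39 (edgeR adjusted p = 0.591).

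The insulin receptor Insr resembled Igf1r in its wtPC12 values, 123 and 448 normalized counts, against 215 and 195 in hrPC12, with a log2 FC of −0.48 (edgeR adjusted p = 0.571). Irs2, an adaptor of both receptors, had 1373 and 3058 against 439 and 453, a log2 FC of −2.31 (edgeR adjusted p = 0.0153) that missed the adjusted p threshold. Under 7 of 12 alternatives that kept the thresholds, DESeq2 among them, Irs2 passed both. Igf2r, a receptor that clears Igf2 and has no kinase, had a log2 FC of 1.45 (edgeR adjusted p = 0.0469) and lies, like Fgfr3, among neighbours raised in hrPC12 replicate 1 (median log2 ratio 0.90).

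Beyond the 10 genes, 148 others were listed for growth factor signaling, of which 132 were found by symbol and 96 tested. Of the 96, 15 were upregulated and 3 downregulated past both thresholds, where the shares of all tested genes were 4.84% and 5.46%. Their median log2 FC was 0.42. Apart from those named above, the upregulated genes were Vegfc, Axl, Musk, Errfi1, Lrig3, Fosl1 and Etv1, and the third downregulated gene was Alk. Without wtPC12 replicate 2 edgeR called 0 of these genes, as of all genes tested, although 60 of them had an unadjusted p under 0.05, and DESeq2 called 17 higher and 4 lower.

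Of 12 tested genes of other receptor tyrosine kinases, 2 rose and 1 fell, against 4.84% and 5.46% of all tested genes. Musk, the kinase of the neuromuscular junction, had 1 and 2 reads in wtPC12 and 1974 and 1655 in hrPC12, at least 508-fold higher (edgeR adjusted p = 0.000261). Axl, the receptor of Gas6, was at least 46.6-fold higher (edgeR adjusted p = 0.00128). Alk, a receptor of the developing nervous system, had 306 and 736 reads in wtPC12 and 1 and 0 in hrPC12, at least 199.8-fold lower (edgeR adjusted p = 0.00162). Ror1, a receptor of Wnt ligands without a read in wtPC12, had 183 and 136 reads in hrPC12, at least 44.5-fold higher. Ddr1, a collagen receptor, and Ryk, a Wnt receptor, which are the most abundant of this list in the counts, had log2 FC of −0.46 and 0.27 and did not pass.

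Vegfc, a ligand of lymphatic vessel receptors, rose 13.3-fold (edgeR adjusted p = 0.00975), while Vegfa had a log2 FC of −1.49 that passed the adjusted p threshold alone (edgeR adjusted p = 0.00406). Vegfc did not pass with glmTreat (adjusted p = 0.0751), without wtPC12 replicate 1 (adjusted p = 0.0210) or with the legacy option of edgeR off (adjusted p = 0.0108), and lies among neighbours raised in hrPC12 replicate 1 (median log2 ratio 0.80). The abundant Pgf had a log2 FC of −0.36 (edgeR adjusted p = 0.498).

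Next came the shared signaling machinery behind the receptors. Of its 27 genes found, 26 were tested and 0 passed both thresholds in edgeR, against 10.3% of all tested genes. DESeq2 called 2. In edgeR 9 of the 26 had an unadjusted p under 0.05, against 46.3% of all tested genes. There were 16 with a positive and 10 with a negative log2 FC and a median of 0.39. The largest log2 FC in each direction were 2.23 and −2.31. Gab1, a docking adaptor of Met and Egfr, passed the adjusted p threshold alone with a log2 FC of 1.77 (edgeR adjusted p = 0.00622). Akt1 (log2 FC 0.27, edgeR adjusted p = 0.259) and Mapk3, the ERK1 gene (log2 FC −1.15, edgeR adjusted p = 0.0101), the most abundant in the counts, did not pass.

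Of 14 tested feedback inhibitors of receptor signaling 2 rose, against 4.84% of all tested genes. Errfi1, which codes for an inhibitor that binds the kinase domains of Egfr and Erbb2, had 336 and 391 normalized counts in wtPC12 and 1925 and 1977 in hrPC12 (log2 FC 2.42, standard error 0.21, edgeR adjusted p = 0.00161), and did not pass with glmTreat (adjusted p = 0.130). Lrig3 had a log2 FC of 2.85 at the edge of the threshold (edgeR adjusted p = 0.00999), and did not pass with glmTreat (adjusted p = 0.170), without wtPC12 replicate 1 (adjusted p = 0.0295) or with the legacy option of edgeR off (adjusted p = 0.0108). Its neighbours had a median log2 ratio of 0.89 between hrPC12 replicates 1 and 2. Spry4 (log2 FC 0.98, edgeR adjusted p = 0.0660) and Dusp6 (log2 FC 1.26, edgeR adjusted p = 0.0534), inhibitors that ERK signaling itself induces, did not pass. Neither did Dusp4, of the same family as Dusp6, which had 43 and 88 reads in wtPC12 against 17 and 5 (log2 FC −2.82, edgeR adjusted p = 0.0284), or Ptpn1, the most abundant gene of the list in the counts (log2 FC 0.06, edgeR adjusted p = 0.828).

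Of 10 tested genes of transcription factors induced by ERK, 2 rose, Fosl1 and Etv1, against 4.84% of all tested genes. Fosl1, an AP-1 subunit, had 187 and 203 against 1958 and 2110 normalized counts (log2 FC 3.38, standard error 0.21, edgeR adjusted p = 0.000763). Etv1, an ETS factor, had 1 and 2 reads in wtPC12 and 437 and 395 in hrPC12, at least 117-fold higher (edgeR adjusted p = 0.000631). Its relatives had lower values in hrPC12, Etv4 with a log2 FC of −1.72 (edgeR adjusted p = 0.00548), past the adjusted p threshold alone, and Etv5 with one of −0.97 (edgeR adjusted p = 0.0201).

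**Figure D4:**
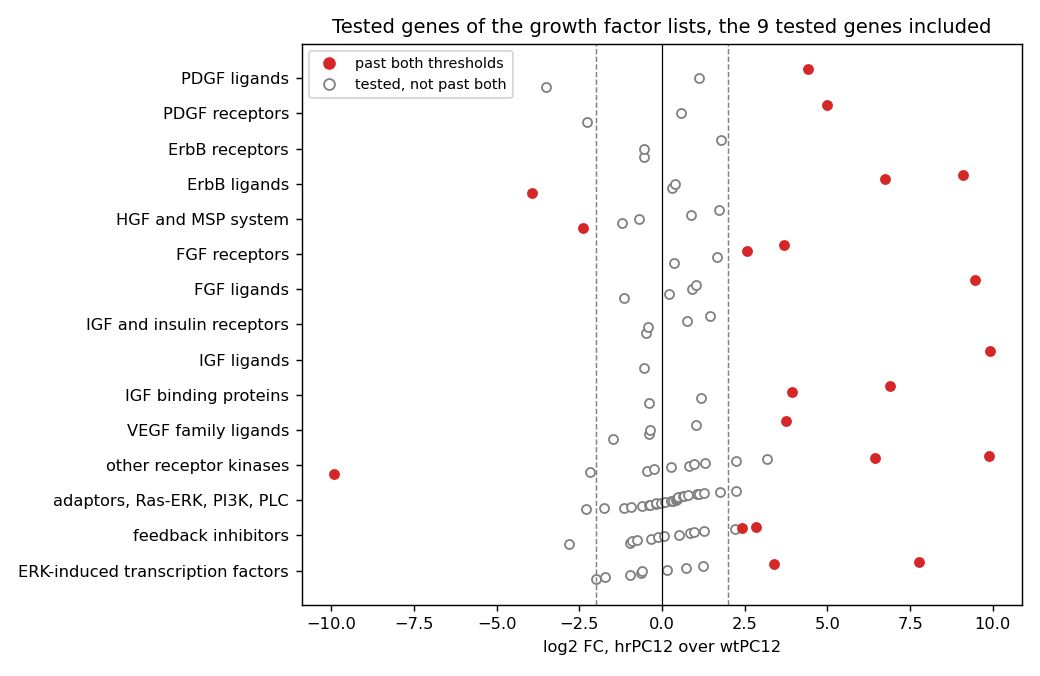
Log2 FC (horizontal axis) of the tested genes of 15 growth factor lists, each point a gene. Red points passed both thresholds, open points did not, and dashed lines mark log2 FC of −2 and 2. The adaptor and kinase list has no red point, while ligand lists have some far to the right, where points of genes at the floor in wtPC12 (Tgfa, Fgf7, Igf1, Axl, Musk, Etv1) depend on the prior count.

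Rest, which defines the clones, had 43.0 and 132 normalized counts in wtPC12 and 964 and 915 in hrPC12, in the direction of the labels. Its log2 FC of 3.42 missed the adjusted p threshold (edgeR adjusted p = 0.0115) and passed it under 8 of 12 alternatives that kept this threshold. Of 7 tested chromaffin markers 6 fell past both thresholds, against 5.46% of all tested genes. The summed level of the 8 found was 953633 and 815545 normalized counts in wtPC12 against 45711 and 50283 in hrPC12. In wtPC12 this sum was mostly Chgb (687936 and 626776). In hrPC12 it was mostly Ddc, the tested marker that did not fall. Ddc had 24196 and 20841 normalized counts in wtPC12 against 26281 and 27995 (log2 FC 0.27, edgeR adjusted p = 0.322). Th, tyrosine hydroxylase, fell 8.45-fold, from 174452 and 128957 reads to 22124 and 20755. Chgb, Slc18a1, Slc6a2 and Dbh, genes of granule content, amine transport and noradrenaline synthesis, fell between 40.5-fold (Dbh) and 1189-fold (Chgb). Of 8 tested fibroblast and mesenchymal markers 6 rose, against 4.84% of all tested genes. They were Col1a1, Col1a2, Col3a1, Vim, Fn1 and Fbln2, and their part in the values of Pdgfrb and Pdgfc was not tested. The summed level of this list was 18083 and 16305 against 95251 and 99981, but in wtPC12 it was mostly Thy1 (17929 and 16186, against 8532 and 8675 in hrPC12, not past the thresholds) and in hrPC12 mostly Col3a1 (83801 and 88143). Dcn had 31 and 21 reads against 3 and 4 (edgeR adjusted p = 0.0182), and Postn, without a read in wtPC12, had 51 and 44 reads in hrPC12. The leukocyte marker Ptprc had 0, 0, 1 and 0 reads and the endothelial marker Pecam1 2, 0, 0 and 1, although the summed levels of their lists were from 47.4 to 52.3 and from 95.4 to 115 in wtPC12 and from 433 to 509 and from 621 to 634 in hrPC12, where Cd14 and Vwf made up most of them. The sums of the pericyte and smooth muscle list (5646 to 5963 against 643 to 715) and the epithelial list (36575 to 47541 against 8344 to 8415) were higher in wtPC12. The first was mostly Mcam (5849 and 5558 against 519 and 596), its 1 called gene, and the other mostly Krt8, which fell like Epcam and Cldn4. Krt19 of the epithelial list went the other way, with 3 and 3 reads in wtPC12 against 34 and 27 (edgeR adjusted p = 0.0122). The sums of the Schwann and glial list were 162 to 166 and 237 to 257. The pericyte markers Cspg4 (6 and 1 reads against 57 and 52) and Rgs5 (14 and 15 against 0 and 0) had opposite orders of the clones, and Sox10 had no read in any library.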

How the data were processed

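The 4 libraries each had 1 count file. Per the labels and the study's methods, paired-end reads were aligned to the rat genome (RGSC3.4, rn4) with TopHat2 2.0.4 and counted per gene with HTSeq 0.5.3, and the deposited values are raw counts without normalization or filter. Reads on genes were 37.9% to 41.3% of those accounted for, and the closing rows of reads on no gene were left out. The use of strand is not given in the sources used here, so overlapping genes may share reads. The authors' table of pooled means, fold changes and p values was not used.

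In R 4.3.3, genes averaging 5 or more normalized counts and detected in each clone (filter and thresholds of the study) were compared with edgeR 4.0.16 (TMM factors, glmQLFit with the legacy option on, glmQLFTest, common dispersion 0.0745), in place of DESeq. Alternatives included DESeq2 1.42.0. On simulated counts of 13629 genes for this comparison, 200 of them changed, edgeR found 200 and called 0 others. The changes put in were large, and the log2 FC that edgeR fitted to them had a median of 3.98 regardless of sign. Recovery of changes close to the log2 FC threshold of 2 was not tested. Calls of unchanged genes under a spread that differs between genes or clones were not tested either. In the data, 9.19% of genes with at least 100 reads on average differed over 2-fold between the wtPC12 libraries. Between the hrPC12 libraries it was 4.06%. The 10 genes, the lists and the tests were chosen with earlier results of these data known. Lists hold genes from general knowledge. By rule the genes named are the 10, Rest, list genes past both thresholds, the 2 most abundant of a list, and list genes at or under 3 reads in each library of one clone and over 30 in the other, except that marker lists are given by counts and examples. The others, among them Pdgfb, Pdgfd, Pdgfrl, Egf, Hbegf, Hgf, Mst1r, Fgfr2, Insr, Irs2, Gab1, Igfbp7, Spry4, Dusp4, Dusp6, Etv4 and some markers, were named after their values were seen. Of the list genes 24 were not found by symbol. The floor is 3 reads per library, and the fold of a gene whose clone nowhere exceeds it is a bound against the mean floor. Levels per kilobase were not computed, since no transcript length was used. Neighbours come from the gene order of GRCr8, on which 63.5% of tested genes were placed by symbol.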

Additional observations from a re-analysis of the deposited data

How the results depend on the processing

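Leaving out each library in turn gave 0 to 2 of the 10 genes upregulated, 0 to 957 genes upregulated and 0 to 920 downregulated among all tested, and 0 to 17 higher and 0 to 5 lower among the other growth factor genes. The value of 0 came without wtPC12 replicate 2 in each case. In that fit the lone wtPC12 library is assumed to vary like hrPC12, the lowest edgeR adjusted p was 0.0130, 6942 genes, 5 of the 10 and 60 of the other growth factor genes had an unadjusted p under 0.05, and DESeq2, added after the data were seen, called 974 genes higher and 732 lower, 3 of the 10 among them (Igf1r, Pdgfc and Pdgfrb). With glmTreat 321 genes were higher and 353 lower, 1 of the 10 (Pdgfrb) and 8 of the other growth factor genes higher. With every gene of at least 1 read tested 1127 were higher, and at an adjusted p under 0.05 1088. The other growth factor genes lower then numbered 6 in both, as with DESeq2. The counts over the other growth factor genes, in both directions, were added after the data were seen. Signs changed with the library left out, none past the thresholds. Without wtPC12 replicate 1 the log2 FC of Egfr was −1.12, of Igf1r −0.10, of Pgf 0.29, of Ptpn1 −0.077 and of Insr −1.16. Without wtPC12 replicate 2 they were 0.34, 2.79, −0.82, 0.18 and 0.73, and Ptpn1 had −0.06 without hrPC12 replicate 1. The cause was not tested. Met was tested only in the fits over every gene or with edgeR's filterByExpr, where 3 of the 10 genes passed. Met was among them through its hrPC12 reads alone, which adds no support beyond its counts. The scaling by RLE factors, library totals or DESeq2 left 2 of the 10. Levels per kilobase were not run. No paired analysis was possible because the labels give the clones no shared replicate numbers, and the numbers used here only follow the order of the samples. Depth limits Pdgfra most among the tested genes of the 10, with 4 to 8 reads per library.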
